A study of Mus musculus with 17 samples.

Results

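Polycomb proteins keep genes silent through marks on histones, and 9 mouse genes for subunits of their main complexes are described here: Ezh1, Ezh2, Eed, Suz12, Bmi1, Cbx2, Cbx7, Cbx8 and Phc1. Every probe set of the deposited table that is annotated to one of these symbols alone was taken, which gave 23 of 45101 probe sets and 9 of the 18193 genes that have a probe set of their own. Suz12 had 6 probe sets, Ezh1 had 4 and Cbx7 had 3. Eed, Bmi1, Cbx2 and Cbx8 had 2 each, and Ezh2 and Phc1 had 1 each. All 23 were above the floor of the values on at least 1 array and entered the test, and 18 were never at the floor.

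As background, Polycomb repressive complex 2 (PRC2) methylates histone H3 at the H3K27 site. EZH2 and EZH1 are its alternative catalytic subunits, and EED and SUZ12 are core subunits that the enzyme needs. Canonical Polycomb repressive complex 1 (PRC1) binds that mark through a CBX protein, such as CBX2, CBX7 or CBX8, and also holds a PHC protein and a PCGF protein such as BMI1. EZH2 is known as the form of dividing cells, EZH1 as one that persists in resting cells, and BMI1 as a protein that adult blood stem cells need to renew themselves.

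The study hybridised amplified RNA from sorted mouse hematopoietic stem cells (HSCs) to 17 Affymetrix arrays, and its title concerns quiescence of adult HSCs and the transcription factor C/EBPa. Fetal liver HSCs came from embryos at E15.5 (n = 3), with no genotype given. The other groups were adult HSCs after injection of pIpC, a double-stranded RNA analog used elsewhere to induce interferon and, through it, an Mx1-driven Cre: C/EBPa KO at day 7 (n = 3), control at day 7 (n = 3), C/EBPa KO at day 21 (n = 4) and control at day 21 (n = 4). The gate for adult cells was lin- Sca1+ cKit+ with CD150 present and CD48 absent, and fetal cells had to be low for Mac-1 as well. The titles name a C/EBPa KO, but a Pu.1 knock-in (PU.1ki/ki) stands in the genotype field of those samples and in the design text, and the controls are labelled wild type. The labels give no strain, Cre driver or age of the adults and leave it unsaid whether replicates were separate or pooled animals. The p-values therefore measure only how these arrays spread, which may be technical.

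Cebpa, the gene for C/EBPa, had 20.7 to 39.8 on the 7 KO arrays, against 115 to 532 on the 7 control arrays, and 30.2 to 81.0 on the fetal arrays. Spi1, the gene for PU.1, had a log2 difference of 0.15 between KO and control over both days (SE 0.31, limma adjusted p = 0.905), which was not called. Whether the Cebpa probe set lies in deleted sequence is not stated. Of the HSC markers, 7 of 9 were measured, and their mean log2 intensity was 9.36 in fetal liver, 9.31 in KO and 9.64 in control at day 7, and 9.05 in KO and 9.69 in control at day 21. All 7 were below control in KO at day 21, with a median difference of -0.45 and none called, and 1, Meis1, was called lower in fetal liver (-1.19, SE 0.26, limma adjusted p = 0.0275). The part of these markers in the differences below was not tested. Cd48, which the gate excludes, had 60.9, 90.3 and 283 in KO at day 7, against 18.8, 16 and 16 in control. KO lay wholly above control there, as for 6.73% of all probe sets. Of 7 listed markers of excluded cells, Cd48 among them, 5 were measured. Their median difference in KO against control was 0.10 at day 7 and 0 at day 21, and none was called on either day. Array control day 21 replicate 3 had the lowest mean correlation with its own group, 0.81, and the most probe sets at the floor, 25.2%. An earlier analysis of these data had put it and control day 7 replicate 1 farthest from their groups, so several differences below are also given without one or both. By the correlation used here control day 7 replicate 1, at 0.854, was the lowest of its own group. Fetal liver replicate 1, at 0.853, and the other control day 21 arrays, at 0.832 to 0.848, were lower still.

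All levels below are deposited intensities on a linear scale whose floor is 16, and all differences are of log2 intensities, with the group named first minus the other. Tests were made with limma over the 40023 probe sets above the floor on at least 1 array, and a call needed an adjusted p, by Benjamini-Hochberg over all of them, under 0.05. Levels of different probe sets are not comparable, since each binds its target with its own strength. In sorted cells, fewer cells of a type and less RNA per cell cannot be told apart. Fetal liver was compared with the average of the day 7 and day 21 control means, so stage, tissue and pIpC cannot be told apart in it, and it shares its control arrays with the KO comparisons.

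Of the 23 probe sets, 1 was called in fetal liver against adult control, where 3.07% of all probe sets were called and 1.61% were called lower, and that was a probe set of Ezh1 that was lower. None was called in KO against control at day 7, where 0.0025% of all were called, at day 21, where 0.03% were, or over both days, where 0.0275% were. At an unadjusted p under 0.05 the members gave 3 probe sets in the fetal comparison, 2 at day 7, 5 at day 21 and 3 over both days, where 15.7%, 6.69%, 9.35% and 10.7% of all probe sets had such a p. The median log2 difference of the 23 was -0.02 in fetal liver against adult control, 0.19 in KO against control at day 7 and 0.00 at day 21, and over all probe sets tested it was -0.0032, 0 and 0.01 in the same comparisons.

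**Figure D1:**
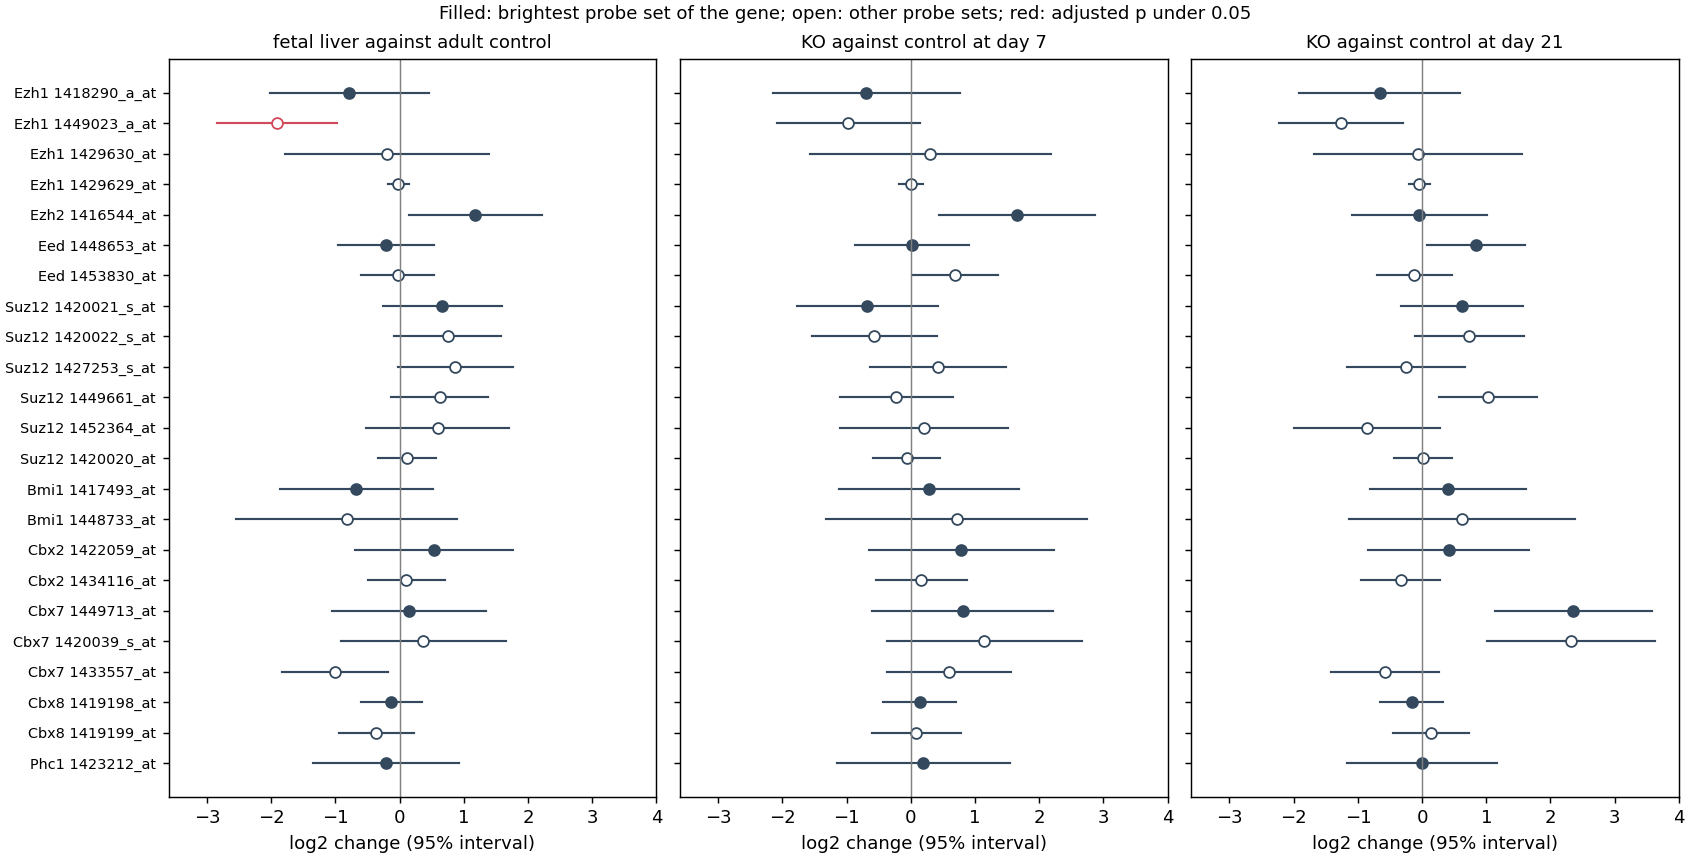
Log2 difference of each of the 23 probe sets with its 95% interval from the limma fit (x axis) in fetal liver against adult control, KO against control at day 7 and KO against control at day 21. Filled circles are the brightest probe set of a gene, open circles its other probe sets, and red marks the 1 called difference, that of Ezh1 probe set 1449023_a_at in fetal liver.

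The promoters of the PRC2 catalytic subunits and of Cbx7 are shown because the results turn on these genes. Of the 9 genes, 8 had an entry in the RefSeq promoter table of build GRCm38.p6, which runs 250 bases before to 50 after the start site, and Cbx2 had none. Each sequence is written along the gene's strand. Capitals mark a match to one of the motifs searched on both strands, which were TTTCGCGC and TTTGGCGC for the E2F cell cycle factors and TTGCNNAA for C/EBP factors.
Ezh2, chr6:47594981-47595280, minus strand: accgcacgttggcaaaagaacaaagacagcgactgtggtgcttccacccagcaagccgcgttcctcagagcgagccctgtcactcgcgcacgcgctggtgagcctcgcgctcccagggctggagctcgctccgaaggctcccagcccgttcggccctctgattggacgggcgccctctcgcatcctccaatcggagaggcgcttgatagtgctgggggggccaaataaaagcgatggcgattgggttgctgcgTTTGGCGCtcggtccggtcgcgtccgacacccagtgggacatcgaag
Ezh1, chr11:101226414-101226713, minus strand: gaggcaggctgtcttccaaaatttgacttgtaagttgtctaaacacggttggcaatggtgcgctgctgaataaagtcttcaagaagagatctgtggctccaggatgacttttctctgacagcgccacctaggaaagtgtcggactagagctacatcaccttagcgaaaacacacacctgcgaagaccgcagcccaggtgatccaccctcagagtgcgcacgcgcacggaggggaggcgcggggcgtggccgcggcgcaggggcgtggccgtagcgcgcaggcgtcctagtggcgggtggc
Cbx7, chr15:79932597-79932896, minus strand: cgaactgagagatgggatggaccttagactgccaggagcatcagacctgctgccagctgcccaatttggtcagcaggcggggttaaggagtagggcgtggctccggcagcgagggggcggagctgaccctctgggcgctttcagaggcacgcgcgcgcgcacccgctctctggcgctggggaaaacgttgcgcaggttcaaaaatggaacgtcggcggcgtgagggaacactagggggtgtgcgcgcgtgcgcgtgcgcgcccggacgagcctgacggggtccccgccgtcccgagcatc
The Ezh2 window held TTTGGCGC on the gene's strand, with its first base at position 4 counted from 1 at the start site, and 0.514% of the 32851 promoters in the table held that motif. The Ezh1 and Cbx7 windows held none of the 3 motifs, and TTTCGCGC, present in 0.323% of promoters, was in none of the 8 windows. TTGCNNAA was in 10.8% of promoters and in that of Cbx8 alone among the 8, on the opposite strand as TTTAGCAA with its first base 118 before the start site. The Ezh2, Ezh1 and Cbx7 windows were 64.3%, 59.3% and 67.3% G or C, against a median of 52.7% over the table. These are matches of letters and say nothing about binding.

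Ezh1 was lower in fetal liver HSCs than in adult control HSCs by probe set 1449023_a_at. It had 37.8, 54.5 and 116 in fetal liver, against 169, 222 and 178 in control at day 7 and 332, 361, 198 and 291 in control at day 21. Every fetal array lay below every control array, which held in the lower direction for 2.78% of all probe sets. The log2 difference was -1.91 (SE 0.44, limma adjusted p = 0.0317), or 3.76-fold lower in fetal liver.

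The call was close to its threshold. Without fetal liver replicate 1 the difference was -1.55 (adjusted p = 0.135), and without fetal liver replicate 2 it was -1.82 (adjusted p = 0.120). Leaving out any 1 control array at day 7, or control replicate 1 or 2 at day 21, also ended the call, with limma adjusted p-values between 0.0506 and 0.0659. Without both arrays that stood apart it was -2.04 (adjusted p = 0.0477). The brightest Ezh1 probe set, 1418290_a_at, had 213, 142 and 662 in fetal liver, against 383, 395 and 590.4 in control at day 7 and 1103, 255, 406 and 497 in control at day 21. There the groups overlapped, and the difference was -0.78 (SE 0.57, adjusted p = 0.568). The correlation of both Ezh1 probe sets over the 17 arrays was 0.593. The remaining Ezh1 probe sets were dim: 1429630_at was at the floor on 6 arrays and 1429629_at on 16.

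Ezh1 probe set 1449023_a_at also lay lower on KO arrays, without passing the test. It had 46.9, 120.5 and 156 in KO at day 7, against the 169, 222 and 178 of control. At day 21 it had 149, 55.5, 155 and 163 in KO, against the 332, 361, 198 and 291 of control. KO and control did not overlap on either day, which held in the lower direction for 6.24% of all probe sets at day 7 and 2.03% at day 21. The difference was -0.97 at day 7 (SE 0.52, adjusted p = 0.807), -1.26 at day 21 (SE 0.45, adjusted p = 0.382) and -1.12 over both days (SE 0.34, adjusted p = 0.256). KO day 21 replicate 2, at 55.5, stood far below the other KO arrays of that day, and without it the difference at day 21 was -0.89 (adjusted p = 0.562). For 1418290_a_at the groups overlapped on both days, with differences of -0.70 (SE 0.68) at day 7 and -0.66 (SE 0.59) at day 21.

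On the log2 scale the lowest 1449023_a_at mean was that of fetal liver, 5.95 ± 0.82 (SD, n = 3). KO day 7 followed at 6.58 ± 0.91 (SD, n = 3), KO day 21 at 6.91 ± 0.75 (SD, n = 4), control day 7 at 7.56 ± 0.21 (SD, n = 3) and control day 21 at 8.17 ± 0.38 (SD, n = 4). The step between both control groups exceeded the larger of their SDs, and no other step between neighbours did.

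Ezh2, the catalytic subunit of dividing cells, was measured by 1 probe set and passed no test. It had 421, 626 and 771 in fetal liver, against 74.5, 302 and 162 in control at day 7 and 1047, 235, 538 and 275 in control at day 21. Fetal liver lay above every control array of day 7 but within the range of day 21, and the difference was 1.18 (SE 0.48, adjusted p = 0.236).

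At day 7 Ezh2 had 451, 453 and 551 in KO, above all 3 control arrays of that day. The difference was 1.65 (SE 0.57, adjusted p = 0.595), and 6.73% of all probe sets had KO wholly above control there. Control day 7 replicate 1, one of the arrays that stood apart, was the lowest at 74.5, and without it the difference was 1.13 (adjusted p = 0.955). At day 21 Ezh2 had 287, 467, 685 and 353 in KO, inside the range of control, with a difference of -0.04 (SE 0.49, adjusted p = 1, 95% interval -1.10 to 1.01). The KO effect at day 21 minus that at day 7 was -1.69 (SE 0.75, unadjusted p = 0.0409, adjusted p = 1), in a test that called 0.0025% of all probe sets and none of the 23.

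Fetal liver had the highest Ezh2 mean, 9.20 ± 0.44 on the log2 scale (SD, n = 3). KO day 7 followed at 8.92 ± 0.17 (SD, n = 3), and KO day 21 at 8.73 ± 0.54 and control day 21 at 8.77 ± 0.99 (SD, n = 4 each) lay next to each other. No step between neighbours among these 4 groups exceeded the larger of both SDs. Control day 7 was last at 7.27 ± 1.01 (SD, n = 3), a step of 1.46 below KO day 21 that exceeded both SDs.

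**Figure D2:**
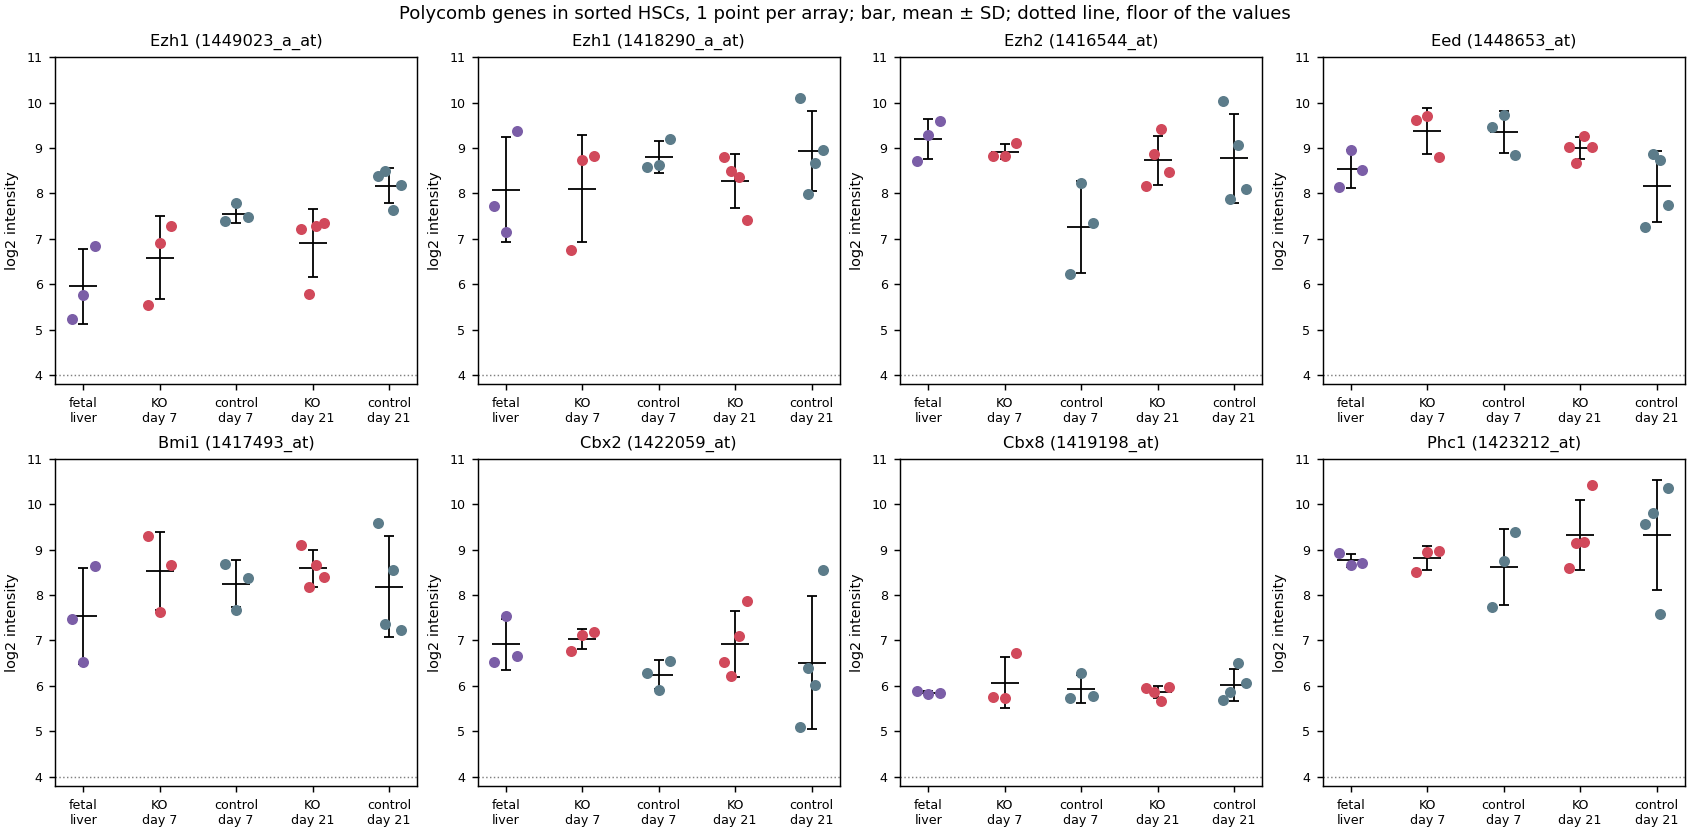
Log2 intensity (y axis) of 8 probe sets on each of the 17 arrays, by group (x axis), with the mean and SD of each group and the floor as a dotted line. The 3 fetal arrays lie below all 7 control arrays for Ezh1 probe set 1449023_a_at, whereas in the other panels fetal liver overlaps the controls.

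The Ezh2 value minus the Ezh1 value was taken on each array, as a description of how both catalytic subunits moved against each other. Its zero has no meaning because it joins different probe sets, and only its differences between groups can be read. With Ezh1 probe set 1449023_a_at it was 3.25 ± 0.44 in fetal liver (SD, n = 3), 2.33 ± 0.81 in KO (SD, n = 3) and -0.29 ± 0.82 in control (SD, n = 3) at day 7, and 1.82 ± 0.99 in KO (SD, n = 4) and 0.60 ± 1.12 in control (SD, n = 4) at day 21. All fetal arrays (2.74 to 3.52) lay above all control arrays of both days (-1.18 to 1.65). The Ezh1 values in it are those already given as wholly below control in fetal liver, so this is not a separate observation. KO arrays at day 7 (1.82 to 3.27) lay above control arrays of that day (-1.18 to 0.44), and at day 21 KO (0.94 to 3.08) and control (-0.62 to 1.65) overlapped. On KO arrays of day 7 Ezh2 lay wholly above control and this Ezh1 probe set wholly below it. Their difference therefore had to separate there, and it is not a separate observation either. With 1418290_a_at KO was again above control at day 7, with 0.81 ± 1.09 in KO and -1.54 ± 1.03 in control (SD, n = 3 each), and the KO arrays (0.08 to 2.06) lay above the control arrays (-2.36 to -0.39). The Ezh2 values in that difference are the same ones. Fetal liver, at 1.12 ± 0.97 (SD, n = 3; 0.22 to 2.14), overlapped control at day 21, at -0.16 ± 0.52 (SD, n = 4; -0.85 to 0.41).

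Proliferation genes differed between the same groups in part. The mean log2 intensity of 12 of 13 listed proliferation genes was 9.61 in fetal liver (9.46 to 9.72 over arrays). It was 9.24 in KO (9.10 to 9.42) and 7.90 in control (7.33 to 8.36) at day 7, and 8.84 in KO (8.60 to 9.30) and 8.15 in control (7.74 to 8.33) at day 21. Of these 12, 5 were called higher in fetal liver than in adult control, with a median difference of 1.67, and none was called in KO against control on either day, with medians of 1.45 at day 7 and 0.61 at day 21. At day 21 the list mean was higher in KO than in control while the Ezh2 means were 8.73 in KO and 8.77 in control. Over the 17 arrays the correlation of the list mean with Ezh2 was 0.544. With Ezh1 it was -0.691 for 1449023_a_at and -0.403 for 1418290_a_at. Within groups the same correlations were 0.173, 0.0057 and -0.058, as a description. The part of proliferation genes in the Ezh1 and Ezh2 values was not tested.

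**Figure D3:**
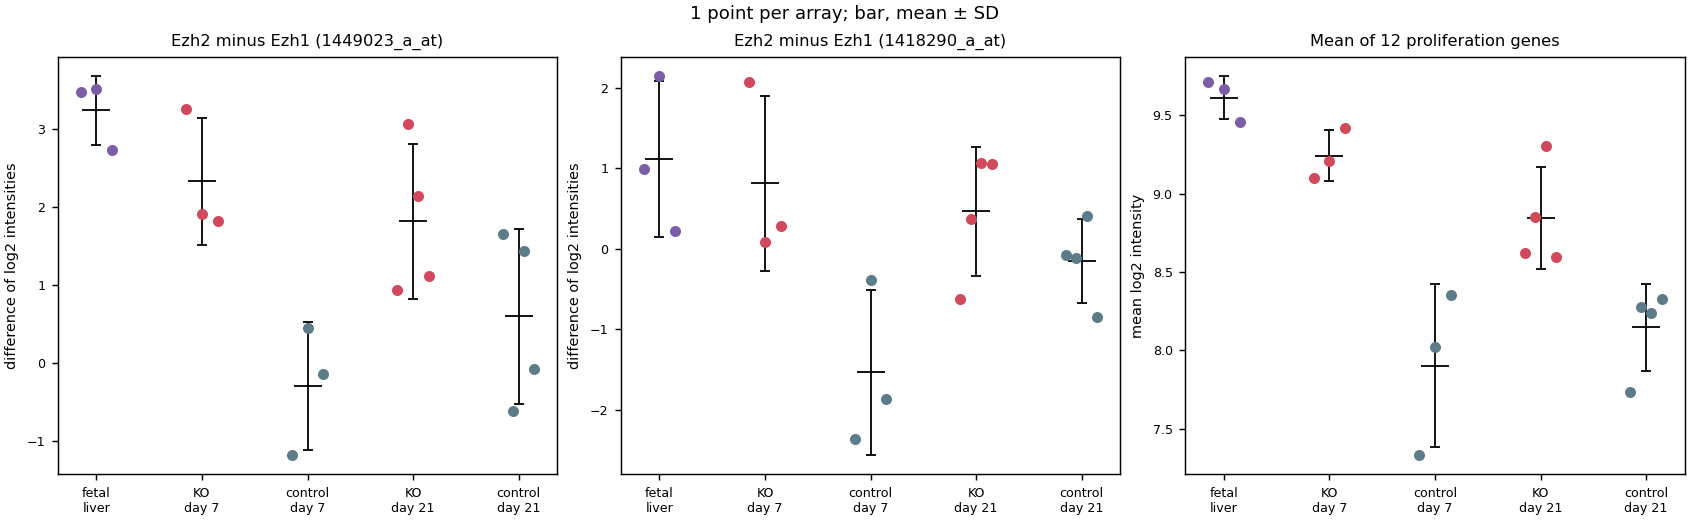
Ezh2 minus Ezh1 on the log2 scale for 2 Ezh1 probe sets (left and middle, y axes) and the mean log2 intensity of 12 proliferation genes (right, y axis) on each array, by group (x axis), with mean and SD. With probe set 1449023_a_at the 3 fetal arrays stand between 2.74 and 3.52, above all 7 control arrays, and the proliferation mean is highest in fetal liver and lowest in control at day 7.

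Genes of liver cells, endothelial cells and macrophages were also higher on the fetal arrays. The summed intensity of 6 hepatocyte genes was 709.9 to 11006 in fetal liver, against 370.3 to 643 in control at day 7 and 327 to 1036 in control at day 21, and 2 of the 6 were called higher. Of 6 endothelial genes 3 were called higher, with sums of 1175 to 11388 in fetal liver, against 459 to 642 and 412 to 758 in control at day 7 and day 21. Of 6 macrophage genes 2 were called higher, with sums of 1749 to 3326 in fetal liver, against 131 to 160 and 135 to 223 in control. The macrophage marker Adgre1 was at the floor on all 7 control arrays and on 1 fetal array. Fetal liver replicate 1, which had the lowest Ezh1 value, 37.8, had the lowest hepatocyte and endothelial sums of the fetal arrays and the highest macrophage sum, 3326. The part of these cell types in the fetal values, that of Ezh1 included, was not tested.

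Eed, the PRC2 core subunit that binds the methyl mark, had 281, 498 and 367 in fetal liver by its brighter probe set, 1448653_at, against 709, 853 and 462 in control at day 7 and 153, 469, 426 and 215 in control at day 21. The fetal values lay within the control range, and the difference was -0.22 (SE 0.35, adjusted p = 0.833). KO arrays had 783, 833 and 443 at day 7, over nearly the same range as control, with a difference of 0.02 (SE 0.41). At day 21 KO had 519, 408, 617 and 517, and the difference was 0.84 (SE 0.36, adjusted p = 0.493), with overlapping groups. The second Eed probe set, 1453830_at, was at the floor on 7 arrays.

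Suz12, the core subunit that stabilises PRC2, had 6 probe sets, and all 6 leaned higher in fetal liver, by 0.12 to 0.87, with none called. By the brightest, 1420021_s_at, it had 1997, 1165 and 760.2 in fetal liver, against 2534, 601 and 705 in control at day 7 and 563, 802, 479 and 482 in control at day 21. The groups overlapped, and the difference was 0.66 (SE 0.43, adjusted p = 0.504). In KO it had 569.6, 689 and 669 at day 7, with a difference of -0.68 (SE 0.51) that was -0.02 without control day 7 replicate 1. When probe sets were averaged per gene before the fit, Suz12 was called higher in fetal liver, by 0.60 (SE 0.13, limma adjusted p = 0.0166). That setting called 871 of 16784 genes, 458 of them higher, and its Suz12 average joins probe sets that did not move together.

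The Suz12 probe sets did not move as one across arrays. The correlation of 1420021_s_at with 1420022_s_at was 0.977 and with 1449661_at 0.648, and that of 1427253_s_at with 1452364_at was 0.823, whereas each correlation between a probe set of the first 3 and one of the last pair lay between -0.26 and -0.43. KO day 21 replicate 2 had 1611 and 1390.2 for 1420021_s_at and 1420022_s_at and 225 and 31.5 for the last pair, the lowest of all arrays for 1452364_at. Control day 7 replicate 1 had 2534 and 1784 for the same 2, the highest of any array, and 169 and 54.3 for the last pair, the lowest control values. The dimmest Suz12 probe set, 1420020_at, stood between the floor and 30.4 on the 17 arrays. Which transcript each probe set matches was not given in the sources used here.

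Of the 6, only 1449661_at separated KO and control at day 21. It had 299, 1000.5, 300.3 and 318 in KO, against 269.6, 194, 245 and 129.9 in control, and 3.13% of all probe sets had KO wholly above control there. The difference was 1.02 (SE 0.36, limma adjusted p = 0.369), with KO day 21 replicate 2, at 1000.5, far above the other KO arrays of that day. At day 7 it had 292, 338 and 305 in KO, against 451, 347 and 306 in control, so that 2 KO arrays lay just below the control range and 1 inside it, with a difference of -0.22 (SE 0.41).

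**Figure D4:**
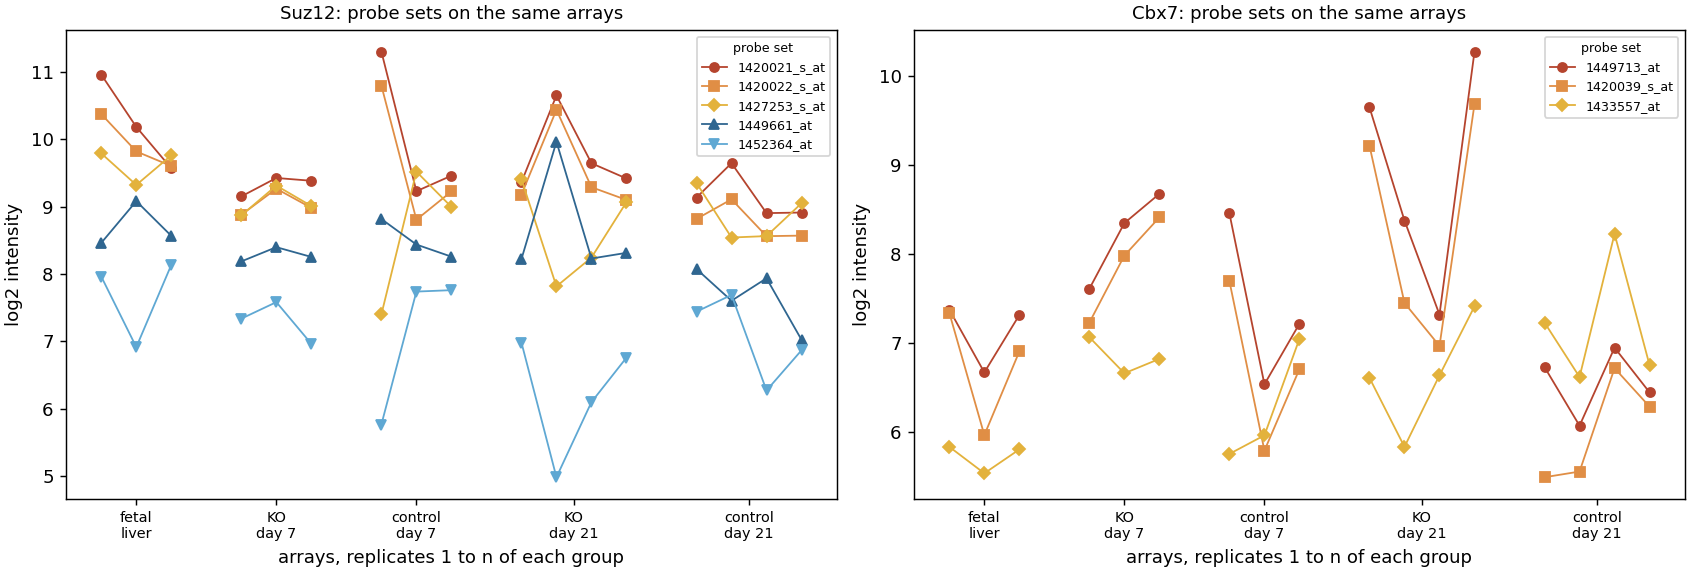
Log2 intensity (y axis) of 5 Suz12 probe sets (left) and 3 Cbx7 probe sets (right) on the 17 arrays, in their groups (x axis). Lines join the values of 1 probe set within a group, and replicates have no order. Suz12 probe sets 1427253_s_at and 1452364_at are low on KO day 21 replicate 2 and control day 7 replicate 1, where 1420021_s_at and 1420022_s_at are high, and Cbx7 probe sets 1449713_at and 1420039_s_at move together while 1433557_at does not follow them.

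Among PRC1 members, the largest difference was that of Cbx7, a CBX protein that reads the methyl mark and is known for a role in HSC self-renewal. By its brightest probe set, 1449713_at, it had 802, 332, 159 and 1239 in KO at day 21, against 106, 67.0, 123 and 86.9 in control. No KO array fell within the control range, as for 3.13% of all probe sets in that direction, and the difference was 2.36 (SE 0.57, unadjusted p = 0.00104, adjusted p = 0.205), or 5.13-fold. With the mean of the 3 Cbx7 probe sets the difference was 1.36 (SE 0.45, adjusted p = 0.286), and without both arrays that stood apart that of 1449713_at was 2.49 (adjusted p = 0.203). At day 7 it had 195, 325 and 409 in KO, against 351, 92.6 and 148 in control, with overlap and a difference of 0.81 (SE 0.65), or 1.34 without control day 7 replicate 1. Fetal liver had 166, 102 and 159, within the adult control range, with a difference of 0.14 (SE 0.55).

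The other Cbx7 probe sets parted. Probe set 1420039_s_at, whose correlation with 1449713_at was 0.969, had 595, 174, 125 and 823 in KO at day 21, against 44.9, 46.9, 105 and 77.8 in control, a difference of 2.32 (SE 0.61, adjusted p = 0.251). Probe set 1433557_at, whose correlation with 1449713_at was 0.094, had 97.3, 56.8, 99.3 and 169.9 in KO, against 149.8, 98.0, 299 and 107 in control. Its difference was -0.58 (SE 0.39, adjusted p = 0.701), opposite in sign and with overlap, and it was -0.24 without control day 21 replicate 3. In fetal liver 1433557_at had 56.9, 46.2 and 55.7, with 1 array below every control array and 2 at the low end of the control range, and a difference of -1.01 (SE 0.38, adjusted p = 0.197).

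Megakaryocyte genes were measured beside Cbx7 at day 21. The summed intensity of 6 such genes was 3142 to 6191 in KO and 1072 to 8225 in control, and their mean log2 intensity was 8.88 in KO (8.36 to 9.32) and 7.28 in control (7.00 to 7.97). None of the 6 was called, 5 had a difference above 0, and none was at the floor on an array of day 21. Erythroid genes had a mean log2 intensity of 8.04 in KO (6.99 to 8.94) and 6.93 in control (5.94 to 8.12), with 5 of 6 differences above 0, none called and none at the floor. In KO replicates 1 to 4 the value of 1449713_at was 802, 332, 159 and 1239. The megakaryocyte list mean on the same arrays was 8.36, 8.75, 9.11 and 9.32. Over the 17 arrays the correlation of 1449713_at with that list mean was 0.627, and within groups it was 0.196. With the erythroid list mean these were 0.4 and 0.102. The part of either list in the Cbx7 values was not tested.

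Cbx2, a CBX protein best known for axial patterning and sex determination, had 109, 139.8 and 146 in KO at day 7 by its brighter probe set, 1422059_at, against 78.1, 59.8 and 92.9 in control. The groups did not overlap, as for 6.73% of all probe sets in that direction, and the difference was 0.79 (SE 0.67, adjusted p = 0.910). At day 21 it had 92.5, 74.5, 136 and 234 in KO, against 34.1, 83.7, 64.9 and 375 in control, a wide overlap with a difference of 0.42 (SE 0.58). The fetal values, 91.9, 187 and 101, lay within the control range, with a difference of 0.53 (SE 0.57). The other probe set, 1434116_at, stood between 27.5 and 83.5 on all arrays, and its correlation with 1422059_at was 0.271. Its differences were 0.10 (SE 0.28) in fetal liver, 0.16 (SE 0.33) at day 7 and, with the opposite sign, -0.33 (SE 0.29) at day 21. The groups overlapped in each.

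Bmi1, the PCGF subunit, had 177, 91.6 and 399 in fetal liver by probe set 1417493_at, against 414, 205 and 332 in control at day 7 and 767, 164, 376 and 149.6 in control at day 21. The difference was -0.67 (SE 0.55, adjusted p = 0.626), and 1 fetal array lay below all controls. It was -1.22 without fetal liver replicate 3 and -0.16 without fetal liver replicate 2. In KO it had 634, 197 and 406 at day 7 and 550.5, 289.6, 404 and 338 at day 21, inside the range of all control arrays. The KO differences were 0.28 (SE 0.65) and 0.41 (SE 0.56), with a 95% interval of -0.81 to 1.62 for day 21, and without KO day 7 replicate 1 the difference at day 7 was -0.11. The dimmer probe set 1448733_at had differences of -0.82 (SE 0.80) in the fetal comparison, 0.71 (SE 0.94) at day 7 and 0.62 (SE 0.82) at day 21, and its control day 21 values ran between the floor and 538. Without both arrays that stood apart these were -1.45, 0.16 and -0.07.

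Cbx8, a CBX protein with a known role in leukemia models, varied least over the arrays when each gene was taken by its brightest probe set. Probe set 1419198_at had 56.9 to 59.3 in fetal liver, 53.4 to 105 in KO and 53.0 to 78.2 in control at day 7, and 51.1 to 62.8 in KO and 51.4 to 90.3 in control at day 21. Its differences were -0.13 (95% interval -0.61 to 0.35) in fetal liver, 0.14 (-0.43 to 0.70) at day 7 and -0.16 (-0.65 to 0.33) at day 21, so a change of over 1 on the log2 scale lay outside each interval. The mean log2 intensity of 1419198_at was 5.95, near the 5.65 of the median probe set, and dim probe sets understate change. The dimmer Cbx8 probe set, 1419199_at, stood between 19.7 and 61.9, both in KO at day 7, and its correlation with 1419198_at was -0.103. Its differences were -0.37 (SE 0.27) in fetal liver, 0.09 (SE 0.32) at day 7 and 0.14 (SE 0.28) at day 21, none called.

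Phc1, which helps PRC1 to cluster on chromatin, had 487, 405 and 415 in fetal liver, inside the 192 to 1302 of the controls. It had 365, 496 and 504 in KO and 212, 432 and 665 in control at day 7, and 384, 564, 576 and 1361 in KO and 759, 892, 192 and 1302 in control at day 21. The differences were -0.21 (SE 0.53), 0.19 (SE 0.62) and 0.00 (SE 0.54, 95% interval -1.16 to 1.17). Without both arrays that stood apart they were -0.72 (SE 0.35, adjusted p = 0.337), -0.25 (SE 0.44) and -0.58 (SE 0.37), so the sign at day 7 turned.

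Control day 21 against control day 7 asked whether members differ with time after pIpC, and none of the 23 was called, where 0.05% of all probe sets were. Eed probe set 1448653_at had 153, 469, 426 and 215 at day 21, against 709, 853 and 462 at day 7, a difference of -1.20 (SE 0.38, unadjusted p = 0.00796, adjusted p = 0.476). Ezh2 leaned the other way, by 1.51 (SE 0.53, adjusted p = 0.535), and by 0.88 (adjusted p = 0.809) without both arrays that stood apart. Suz12 probe set 1449661_at was the only 1 of the 23 whose groups did not overlap, with 129.9 to 269.6 at day 21, against 306 to 451 at day 7. That difference was -0.85 (SE 0.38, adjusted p = 0.659), and 3.42% of all probe sets lay wholly lower at day 21.

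For 4 members the genes with the most similar pattern were taken by Pearson correlation over the 17 arrays, among 10881 genes above the median probe set. They were Klc3 (0.819), Sergef (0.797) and Spaca6 (0.757) for Ezh1, and Lsm14b (0.827), Fbh1 (0.817) and Ppp2r1b (0.806) for Ezh2. For Bmi1 they were Arl1 (0.798), Tmc6 (0.778) and Jak3 (0.776), and for Cbx2 Grpel1 (0.854), Mrpl36 (0.830) and Pcmt1 (0.826). Ezh1 stood for its brightest probe set here, the arrays share groups and processing, and the 3 highest of 10881 correlations are high by selection.

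Other Polycomb genes were described from 5 lists with 33 genes, of which 31 were measured. By the brightest probe set of each, 1 was called higher and 2 lower in fetal liver against adult control, where 1.46% and 1.61% of all probe sets were, with a median difference of 0.14, and none was called in KO against control on either day or over both days. At an unadjusted p under 0.05 there were 9 of 31 in the fetal comparison, 1 at day 7 and 10 at day 21, where 15.7%, 6.69% and 9.35% of all probe sets had such a p.

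The clearest of them was Kdm6b, the demethylase that removes the PRC2 mark. It had 703, 749 and 945 in fetal liver by probe set 1447612_x_at, against 3039, 2629.6 and 3549 in control at day 7 and 3216, 3411, 1778 and 2567 in control at day 21. It fell by 1.85 on the log2 scale (SE 0.20, limma adjusted p = 0.000124), with every fetal array below every control array, as for 2.78% of all probe sets. Its other probe sets were also lower, by -4.59 (SE 0.49, adjusted p = 0.000117) for 1442643_at, where 1 fetal array was at the floor, and by -2.38 (SE 0.54, adjusted p = 0.0316) for 1456610_at. In Affymetrix names, the suffix _x_at marks probes that may bind other transcripts too. In KO at day 7 Kdm6b had 1923, 1783 and 1533, below all 3 control arrays, as for 6.24% of all probe sets, with a difference of -0.81 (SE 0.23, adjusted p = 0.498), and at day 21 KO and control overlapped, with a difference of 0.08 (SE 0.20).

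Bcor, a corepressor in variant PRC1, fell in fetal liver. It had 560.3, 713 and 524 there, against 1493, 992 and 1174 in control at day 7 and 1522, 1375, 855 and 977 in control at day 21. The difference was -0.99 (SE 0.20, limma adjusted p = 0.0176) with no overlap, as for 2.78% of all probe sets in that direction. Its other probe sets had -0.95 and -0.89 and were not called. Pcgf3, a PCGF protein of variant PRC1, was called higher by 1428423_at, by 1.45 (SE 0.36, adjusted p = 0.0464). It had 130.1, 287 and 341 in fetal liver, against 111, 326 and 109 in control at day 7 and 37.1, 53.0, 55.4 and 40.9 in control at day 21, so fetal liver overlapped control at day 7, and without both arrays that stood apart the call was lost (1.37, adjusted p = 0.0875).

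By list, none of 7 other PRC2 subunits and partners and none of 6 other CBX, PHC and SCM subunits was called in the fetal comparison, with medians of 0.12 and -0.37. Of 7 catalytic and PCGF subunits of PRC1, 1 was called, with a median of 0.68. Of 6 variant PRC1 partners and of 5 opposing enzymes 1 each was called, Bcor and Kdm6b, with list medians of -0.04 and 0.47. In KO against control at day 21 the smallest p among the 31 was that of Pcgf2, a paralog of Bmi1, with 327, 418, 236 and 249 in KO, against 114, 128, 77.9 and 76.8 in control. That difference was 1.63 (SE 0.37, adjusted p = 0.179), without overlap, as for 3.13% of all probe sets, and its second probe set, 1456330_at, had -0.57 (SE 0.34).

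Genes that Polycomb is known to silence gave no call. Of 12 textbook targets, 11 were above the floor on at least 1 array, Olig2 was not, and none was called in any of the comparisons. Their median log2 difference was -0.01 in fetal liver and -0.16 in KO against control at day 7 and at day 21. Cdkn2a, the Ink4a-Arf gene that BMI1 represses, stood between 20.7 and 35.8 on all 17 arrays, and Cdkn2b was at the floor on 8.

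**Figure D5:**
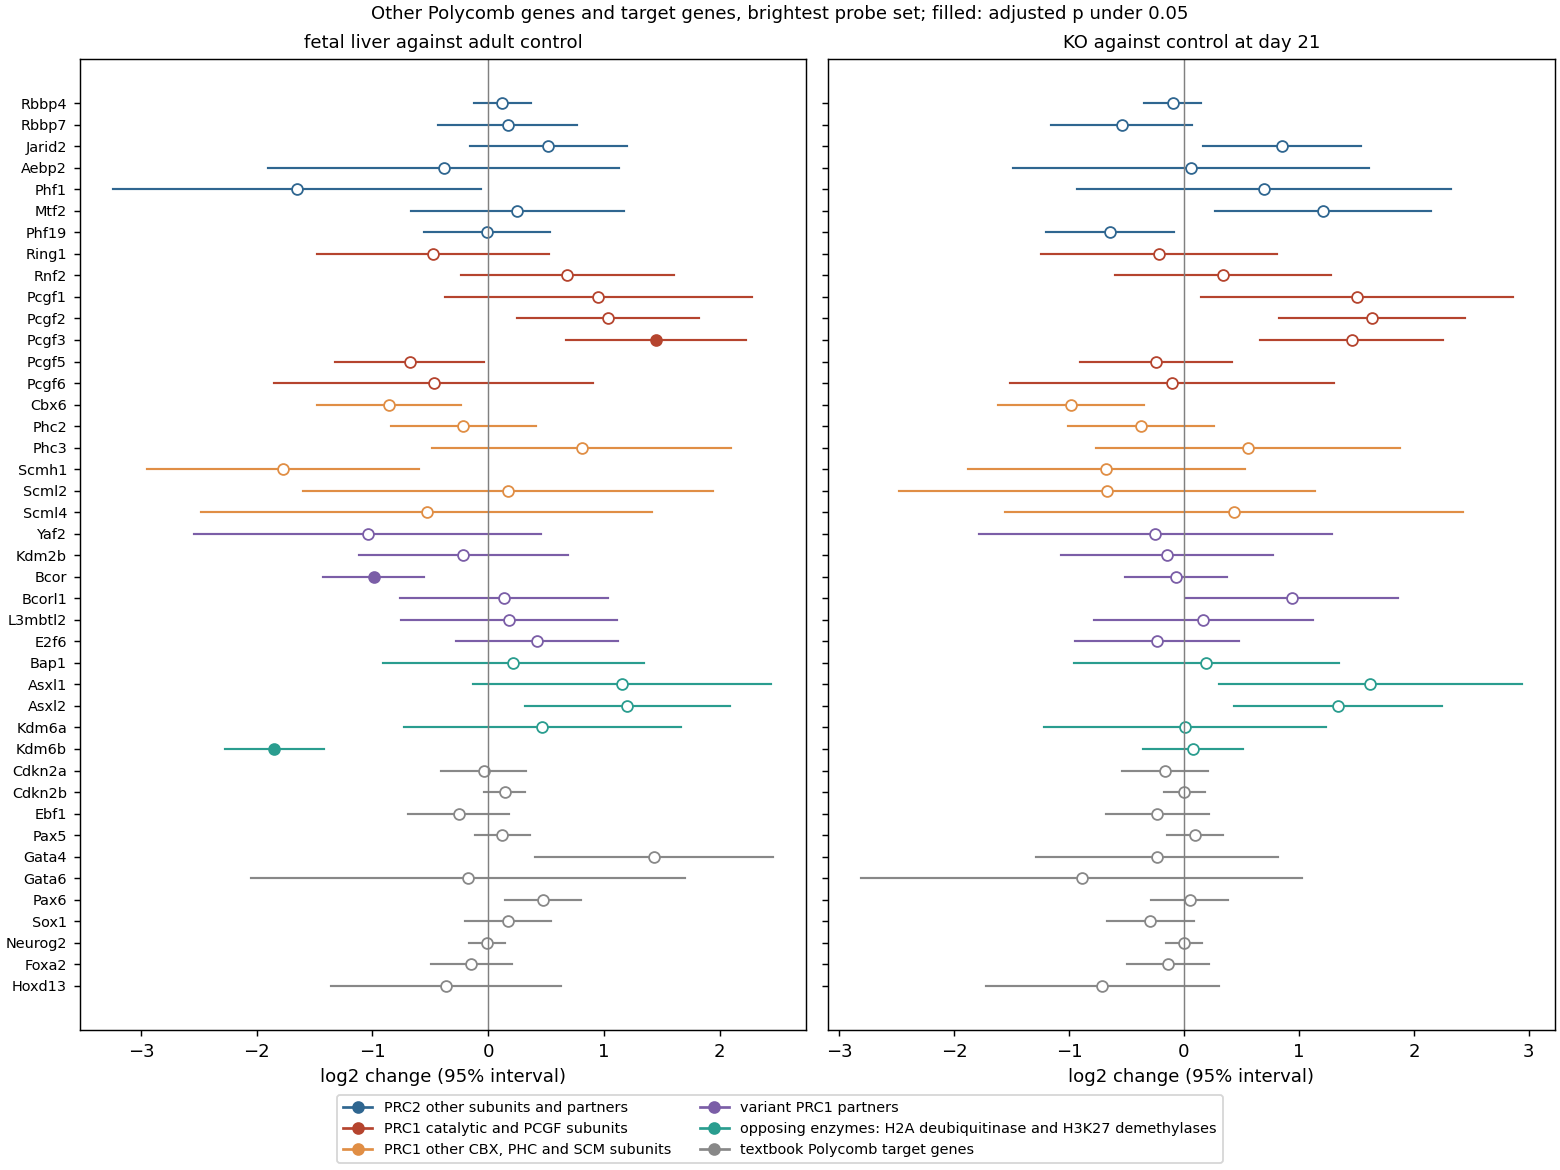
Log2 difference with its 95% interval (x axis) for 31 other Polycomb genes and 11 textbook target genes by their brightest probe set, in fetal liver against adult control (left) and in KO against control at day 21 (right), coloured by list. Filled circles mark the 3 called genes, Pcgf3 higher and Bcor and Kdm6b lower in fetal liver, and no circle is filled at day 21.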

How the data were processed

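Sorted HSCs were measured on 17 arrays in 5 groups taken from the sample titles. The authors deposited 1 processed intensity per probe set, on a linear scale by its values. RMA is named in the submitters' processing notes without a role, and no source used here gives the scaling between arrays. Every array had a floor of 16, 20.4% to 25.2% of its probe sets lay there, and array medians were 39.4 to 53.1. Arrays give no count depth, so their number limits the precision.

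The test had been planned for log2 values. The deposited values were linear, so log2 of them was taken with no pseudocount, which puts the floor at 4. Names came from the platform annotation given with the table: 34945 probe sets had 1 gene, 932 had several and 9160 had none here. The 40023 probe sets above the floor on at least 1 array were fitted with 1 mean per group in R 4.3.3 with limma 3.58.1 (eBayes on lmFit, no covariate, residual df 12), and p-values were adjusted by Benjamini-Hochberg over all of them. The script was tested on simulated data. No pair of arrays held identical values.

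The members, lists and tests were chosen with earlier results of these data known. The 9 members were always named, with every probe set, and the brightest over all arrays stood for a gene elsewhere. Of the other Polycomb lists, called genes were named, and otherwise the gene with the smallest p could be named. Some marker and target genes were also named for their levels. Alternatives covered scaling, filters, summary per gene, covariates, weights, a replicate block and leaving out arrays. Some genes of the lists were not analysed here.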

Additional observations from a re-analysis of the deposited data

Results flagged for a closer look

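In groups of 4 arrays, the highest or lowest member value was compared with its nearest neighbour by Dixon's ratio, and 8 of 45 groups of the 23 probe sets held an array that stood apart. Chance gives about 1 in 20 for independent values without ties. In 3 of the 8 all other arrays of the group were at the floor, where the ratio is 1 by construction, and probe sets share genes, so the 8 cannot be set against that rate. Values are log2 intensities.

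KO day 21 replicate 2 was that array in 4 of the 8. It was lowest for Ezh1 probe set 1449023_a_at at 5.79, where the nearest array had 7.22, and highest for Ezh1 probe set 1429630_at at 6.34, with the others at the floor. It was also highest for Suz12 probe sets 1420022_s_at at 10.44 and 1449661_at at 9.97, where the nearest arrays had 9.29 and 8.31. Control day 21 replicate 3 was highest for Ezh1 probe set 1429630_at at 6.56. Near the floor, control day 21 replicate 2 was highest for Ezh1 probe set 1429629_at at 4.16 and KO day 21 replicate 1 for Eed probe set 1453830_at at 4.19. KO day 21 replicate 3 was lowest for Cbx2 probe set 1434116_at at 4.78.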

How the results depend on the processing

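Of 4080 recomputed member results, 4042 kept their direction and side of the threshold or moved by under 1 SE, 9 lost a call, 1 gained one, 28 moved to the other sign without a call, and none reversed. The member count in fetal liver against adult control, 1 as reported, was 0 with the replicate block, with array weights and with the brightest probe set per gene, and 0 to 1 when 1 array was left out. The cause was not tested. It stayed at 1 with the mean per gene, which called Suz12 and not Ezh1. In the other comparisons no member was called under any setting. Deviations of same-numbered arrays from their group means had correlations of -0.015 to 0.080. Arrays of different numbers were not compared in this way, so whether the numbers pair arrays was not settled. With the replicate block Ezh1 probe set 1449023_a_at had -1.87 (adjusted p = 0.0627), and over its other alternatives, arrays left out aside, its adjusted p was 0.0026 to 0.0632. Bcor was called in 12 of 14 alternatives, Kdm6b in 14 of 14 and Pcgf3 in 3 of 14.

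Counts over all probe sets were 1228 in the fetal comparison as reported, 486 with only the arrays compared and 613 with the brightest probe set per gene. They ranged over all settings between 0 and 11 for KO at day 7 (1 as reported) and between 0 and 56 at day 21 (12 as reported, 56 without control day 21 replicate 2). Over both days they ranged between 0 and 61 (11 as reported, 61 with array weights), for control day 21 against day 7 between 3 and 44 (20 as reported), and for the difference of KO effects between 0 and 5 (1 as reported). The floor, and dim probe sets such as 1419199_at of Cbx8, limit what could be seen.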
